A study of Mus musculus with 16 samples.

Results

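The genes described here are Crym and 8 other genes that act in the handling of thyroid hormone, namely Dio2, Dio3, Slco1c1, Thra, Thrb, Klf9, Hr and Ncor1. They were taken by gene symbol, 9 of the 53379 genes counted in each library. Crym was chosen by its measured level, which was higher in Eed-/- than in Eed+/+ cells of these same libraries, so its difference between genotypes is given as a description with no test. The other 8 genes were named for their known place in the pathway, with earlier results of these data known. RNA came from green (GFP+) cells sorted from the neocortex at postnatal day 4, of mice labelled CD1 (a mixed background of C57BL/6 and CD1 in the study's methods), in which recombination between MADM cassettes on chromosome 7 was driven by Emx1-Cre. In control mice (MADM7-GT/TG;Emx1-cre;XGFAP-lacZ) the green cells were Eed+/+. Mosaic mice (Eed-MADM) carried a floxed Eed allele (per the study) beside the same cassettes, Cre and transgene, and were heterozygous for it. Their green cells were Eed-/-. Eed encodes a core subunit of the Polycomb repressive complex that methylates histone H3. The human GFAP promoter drove lacZ, and the lacZ stain split green cells into astrocytes (lacZ+) and cells labelled as neurons (lacZ-). That left 5 Eed+/+ and 5 Eed-/- astrocyte libraries and 2 Eed+/+ and 3 Eed-/- neuron libraries, each library from an individual animal; a further library, titled as astrocytes but labelled with the neuron cell type, entered no group. In all groups the green cells carried both copies of chromosome 7 from the father, and both Crym and Eed lie on that chromosome.

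Thyroid hormone enters the brain mainly as the prohormone thyroxine. The transporter encoded by Slco1c1 carries thyroxine across the blood-brain barrier and into astrocytes, where the deiodinase encoded by Dio2 converts it to the active hormone triiodothyronine, and the deiodinase encoded by Dio3 inactivates both. Crym encodes mu-crystallin, a cytosolic protein that binds triiodothyronine. Thra and Thrb encode the nuclear receptors, Ncor1 encodes a corepressor that the receptors recruit in the absence of hormone, and Klf9 and Hr are classical target genes; the Hr protein is itself a corepressor.

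Crym lies on the reverse strand of chromosome 7 (chr7:120186380-120202111, GRCm38) and no other annotated gene overlaps it. Its coding sequence opens in exon 1 of 8 and encodes 313 residues. The first 90 coding bases (chr7:120201835-120201924) are shown to identify the gene to which the reads were assigned, with the start codon in capitals. The deiodinases are selenoproteins, in which an in-frame TGA codon is read as selenocysteine at the catalytic site. The stretches of 63 coding bases around that codon in Dio2 (codon 130, chr12:90729793-90729855, reverse strand, exon 2) and Dio3 (codon 170, chr12:110279709-110279771, forward strand, exon 1) are shown because the reads of the pair have to be told apart by sequence; the TGA is in capitals.
Crym: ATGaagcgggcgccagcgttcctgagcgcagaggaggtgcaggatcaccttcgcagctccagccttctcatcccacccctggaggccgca
Dio2: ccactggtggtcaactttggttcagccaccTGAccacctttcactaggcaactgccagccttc
Dio3: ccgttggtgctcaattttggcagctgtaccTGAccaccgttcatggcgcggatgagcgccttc
Even around the catalytic codon, 41 of the 63 bases were identical and the rest differed. All 3 stretches are exonic, and the letters are those of the GENCODE transcripts.

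Reads counted to genes ranged from 211736 to 3178529 per labelled library. For each library the share of reads that aligned uniquely was 26.1% to 76.6%, and 10 of the 15 labelled libraries had at least 1000000 uniquely aligned reads and at least 60% of reads uniquely aligned. The libraries outside these limits were Eed+/+ astrocyte replicate 3, Eed-/- astrocyte replicates 1, 3 and 4, and Eed+/+ neuron replicate 2. In Eed-/- astrocyte replicate 4 only 2959 genes had a read, and in replicate 1 only 4462. Levels below are counts per 1000000 gene reads with library totals scaled by the trimmed mean of M values (TMM-scaled CPM). A count of 0 allows up to 3 reads, counting error only. Over plain library totals, before TMM scaling, this is 0.944 CPM in the deepest labelled library and 14.2 CPM in the shallowest. All such limits below are on that plain scale. Eed itself, the targeted gene, had 88, 204, 2, 85 and 41 reads in the Eed+/+ astrocyte libraries and 0, 26, 0, 0 and 14 in the Eed-/- ones, and 121 and 26 against 21, 74 and 53 in neurons; reads were counted over the whole gene, and the cells sorted as Eed-/- retained some.

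Crym was read at a high level in 2 Eed-/- astrocyte libraries, at an intermediate level in 1 more, and in all 3 Eed-/- neuron libraries, against low or zero levels in Eed+/+ cells. In Eed+/+ astrocytes, replicates 1 to 5 held 6, 31, 0, 23 and 2 Crym reads, or 3.18, 12.3, 0, 11.2 and 1.28 CPM. In Eed-/- astrocytes, replicates 1 to 5 held 0, 537, 0, 25 and 483 reads, or 0, 351, 0, 88.3 and 463 CPM. The 3 Eed-/- libraries with reads all lay above every Eed+/+ library, and the 2 without any lay at the bottom of the Eed+/+ range, so that the groups overlapped.

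Both Eed+/+ neuron libraries held 0 Crym reads, among 1786836 and 343640 gene reads. The 3 Eed-/- neuron libraries held 48, 79 and 43 reads, or 37.7, 45.4 and 25.4 CPM. Here the groups did not overlap. Crym was chosen for this difference, so no p-value is given in either cell type.

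**Figure D1:**
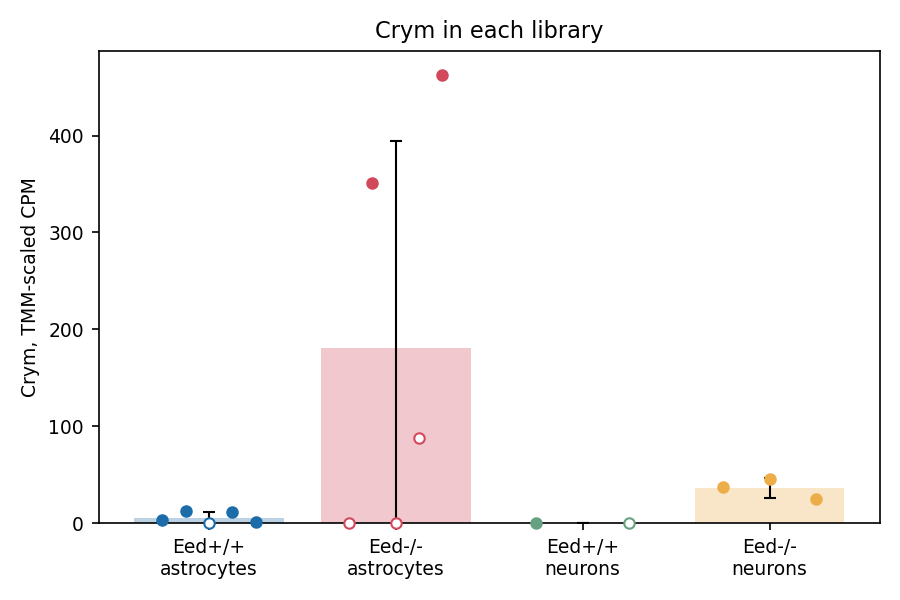
Crym in TMM-scaled CPM (y axis) in each library of the 4 groups (x axis). Bars are means, error bars are SD cut at 0, filled points are libraries within the alignment limits and open points those outside; Eed-/- astrocyte replicates 2 and 5, at 351 and 463 CPM, stand above the rest, and both Eed+/+ neuron libraries lie at 0.

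The group means were 180 ± 214 CPM in Eed-/- astrocytes (SD, n = 5), 36.1 ± 10.1 in Eed-/- neurons (n = 3), 5.59 ± 5.75 in Eed+/+ astrocytes (n = 5) and 0 in Eed+/+ neurons (n = 2). In this order of levels the Eed-/- astrocytes overlapped the Eed-/- neurons, and Eed+/+ astrocytes overlapped Eed+/+ neurons at 0, while every Eed-/- neuron library lay above every Eed+/+ astrocyte library. Summed over libraries, Crym took 1045 of 3882808 gene reads in Eed-/- astrocytes and 62 of 9780680 in Eed+/+ astrocytes, a ratio of 42.5 (95% exact interval 32.8 to 55.8, counting error only). Leaving out a library at a time moved that ratio between 30.7, without Eed-/- replicate 5, and 57.3, without Eed+/+ replicate 2. In neurons, 170 of 4933703 reads against 0 of 2130476 made Crym at least 24.5-fold higher in Eed-/- cells, with a floor of 3 reads over the Eed+/+ group. That bound rested on the deeper Eed+/+ neuron library: without replicate 1 it was at least 3.95-fold.

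In the fitted model for astrocytes (edgeR) the Crym difference was 5.11 ± 1.63 on the log2 scale (SE), where the median over the 8956 genes tested was -0.54. Kept to libraries within the alignment limits, the 2 Eed-/- astrocyte libraries averaged 407 CPM, and the difference was 5.93 ± 0.68. The astrocyte libraries fall into 2 runs of consecutive library numbers, in fits added after the data were seen. Within run 1 alone the difference was 3.97 ± 3.00 and within run 2 alone 6.08 ± 2.74 (SE). Eed-/- astrocyte replicate 4, with 25 Crym reads, held no read of Dio2, Thra or Klf9, and its summed erythroid marker level was 8914 CPM; in replicate 1, with no Crym read, it was 5476 CPM and the summed microglial markers were 6207 CPM. The 2 Eed-/- libraries with the highest Crym had erythroid and microglial markers at 0 reads.

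The rule did not use the contrast between cell types, but it chose Crym on its levels in these same libraries. Values of Crym in that contrast are therefore not independent of the choice, and Crym did not pass the test. In Eed+/+ cells it was at least 4.50-fold higher in astrocytes than in neurons by summed reads (62 against 0), with an unadjusted edgeR p of 0.043 and an adjusted p of 1. That bound rested on Eed+/+ neuron replicate 1. Without it 3 reads in the remaining library were 8.73 CPM, above the pooled astrocyte level, and no bound remained. Both Eed+/+ neuron libraries held 0 Crym reads, so the fit could only place astrocytes higher. In Eed-/- cells the direction depended on the measure. The fitted log2 difference was 2.40 ± 1.58 (SE, edgeR adjusted p 0.968), while the difference in mean log2(CPM + 1) was -0.42 (exact permutation p 0.786) and the fit with a replicate block gave -3.28. By summed reads the Eed-/- ratio was 7.81, but 2 of the 5 astrocyte libraries lay at 0, below all 3 neuron libraries, and 3 lay above them.

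The deiodinases differed from each other in abundance. Dio2 (chr12:90724552-90738438, reverse strand), which makes the active hormone, was read in 12 of the 15 labelled libraries. In Eed+/+ astrocytes its levels were 195, 184, 0, 130 and 23.7 CPM, and in Eed-/- astrocytes 0, 174, 82.5, 0 and 81.4 CPM. The ranges overlapped, and the log2 difference of -0.47 ± 1.40 (SE) had an edgeR adjusted p of 1.00. In neurons Dio2 had 79.5 and 468 CPM in the Eed+/+ libraries and 54.1, 57.4 and 102 CPM in the Eed-/- libraries. The high Eed+/+ value came from replicate 2, the library outside the limits, and replicate 1 lay within the range of the Eed-/- libraries.

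Of the 7 members other than Crym that could be tested in neurons, Dio2 had the lowest p. It was lower in Eed-/- neurons by 2.17 ± 0.78 on the log2 scale (a log2 difference of -2.17), with an edgeR unadjusted p of 0.0159 and an adjusted p of 0.665, and so did not pass. The value turned on 1 library. Without Eed+/+ neuron replicate 2 the log2 difference was -0.19, and without replicate 1 it was -2.93, with an edgeR adjusted p of 0.00421; in that last fit, where replicate 2 stood alone for the Eed+/+ group and was assumed to vary like the others, 2601 of 12635 genes (20.6%) were called, with Dio2 alone among the 7 members tested.

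Dio3 (chr12:110279068-110281097, forward strand), the inactivating enzyme, was read in 2 of the 15 libraries. Eed+/+ astrocyte replicate 3, a library outside the limits, held 22 reads or 42.4 CPM, and Eed-/- astrocyte replicate 2 held 4 reads or 2.61 CPM. All 5 neuron libraries held 0, which allows up to 1.46 CPM in the deepest of them. Dio3 failed the filter on low counts in every comparison, and a two-sided exact permutation test of log2(CPM + 1) between astrocyte genotypes gave p = 1.00, where the smallest p that 5 against 5 libraries allow is 0.00794. Dio3os, the annotated antisense neighbour of Dio3, had 0 reads in every library.

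Slco1c1 (chr6:141524368-141570177, forward strand), the thyroxine transporter, was read in 14 of the 15 labelled libraries. Its levels in Eed+/+ astrocytes were 522, 675, 117, 469 and 94.2 CPM, and in Eed-/- astrocytes 0, 474, 255, 3.53 and 142 CPM. The 2 Eed-/- libraries at or near 0 were replicates 1 and 4, and the other 3 lay inside the Eed+/+ range. The log2 difference was -0.92 ± 1.20 (SE), with an edgeR adjusted p of 1.00. Neuron libraries also carried the transcript, at 237 and 266 CPM in Eed+/+ cells and at 217, 111 and 96.2 CPM in Eed-/- cells.

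Every Eed-/- neuron library lay below both Eed+/+ neuron libraries for Slco1c1, and how many of all genes split in this way was not counted. The log2 difference was -1.02 ± 0.63 (SE), with an edgeR adjusted p of 0.739, and the exact permutation test gave p = 0.20, the smallest that 3 against 2 libraries allow. Endothelial cells also express Slco1c1, and their 6 marker genes summed to at most 50.1 CPM in any labelled library. Astrocyte markers were present in the same neuron libraries, with all 10 genes read and sums of 5870 to 8456 CPM; their part in the Slco1c1 and Dio2 levels there was not tested.

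**Figure D2:**
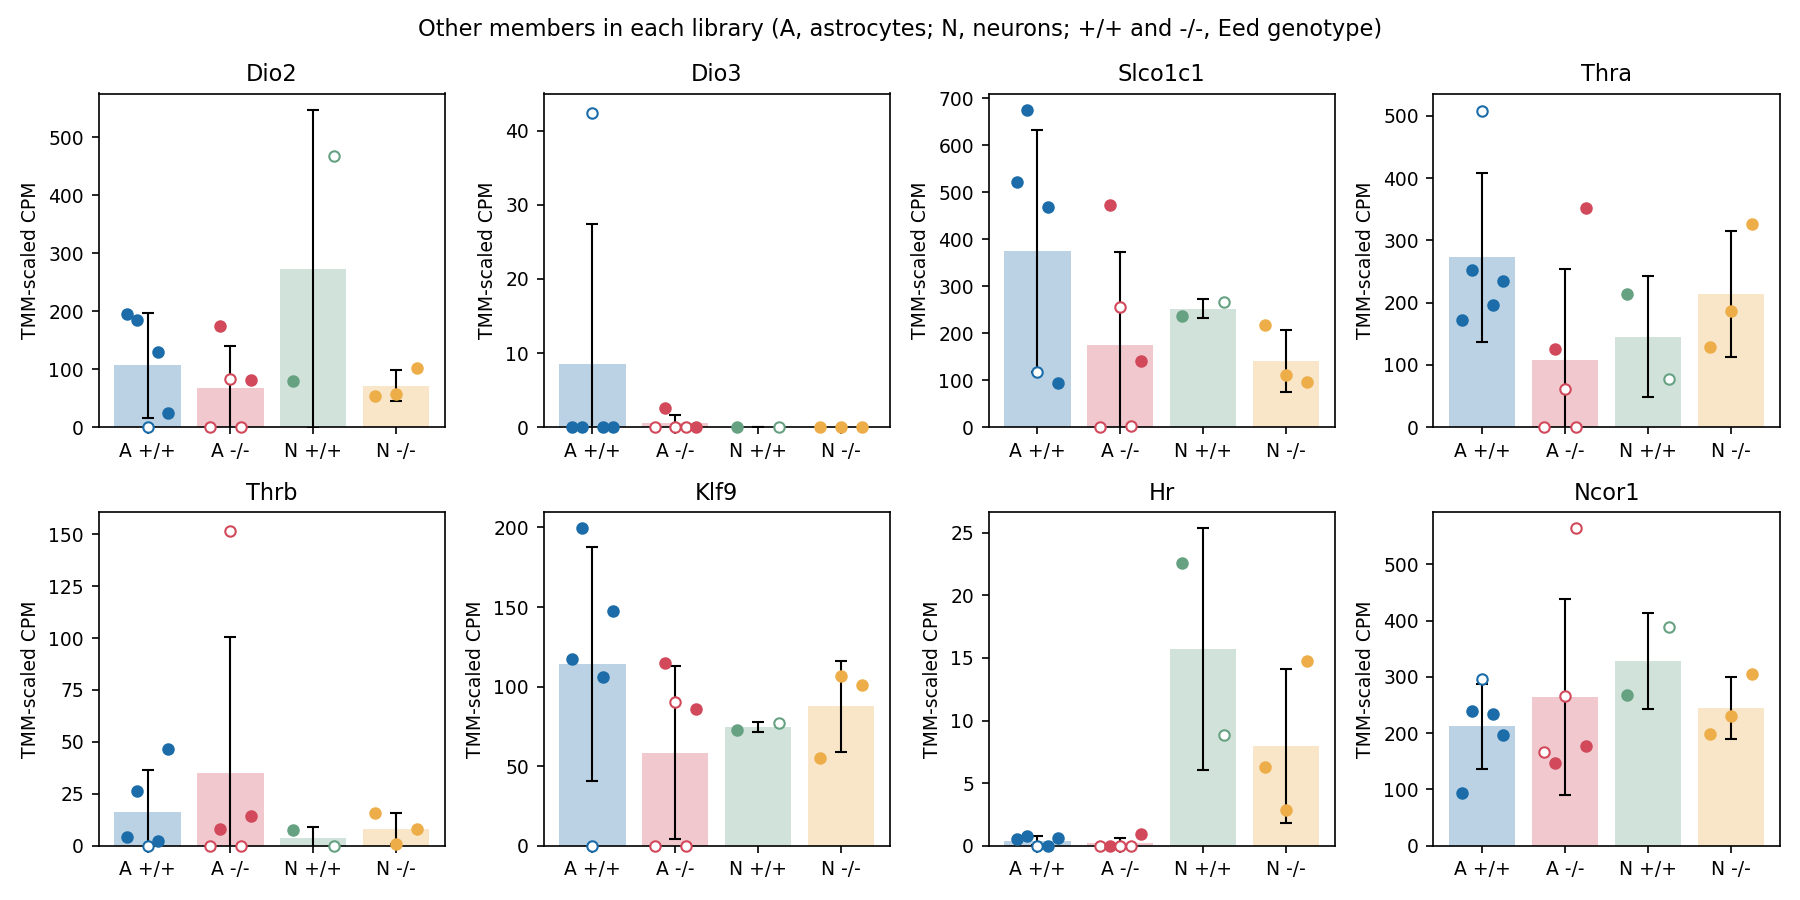
TMM-scaled CPM (y axes, each panel with its own scale) of the other 8 members in each library of the 4 groups (x axes). Bars are means, error bars are SD cut at 0, filled points are libraries within the alignment limits and open points those outside; for Hr every neuron library lies above every astrocyte library, and for Dio3 only 2 libraries leave 0.

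The receptors differed in level, here per kb of exon. Thra (chr11:98740638-98769006), the receptor gene that predominates in brain, averaged 59.1 ± 29.4 CPM per kb in Eed+/+ astrocytes (SD, n = 5), while Thrb (chr14:17660261-18038090) averaged 2.16 ± 2.73. In Eed-/- astrocytes the averages were 23.4 ± 31.7 and 4.70 ± 8.86 CPM per kb (n = 5). In neurons Thra averaged 31.5 ± 21.0 (Eed+/+, n = 2) and 46.4 ± 22.0 CPM per kb (Eed-/-, n = 3), against 0.508 ± 0.718 and 1.10 ± 1.02 for Thrb.

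By library, Thra had 172, 252, 509, 197 and 235 CPM in Eed+/+ astrocytes and 0, 126, 61.2, 0 and 353 CPM in Eed-/- astrocytes. Of the 5 Eed-/- libraries, 4 lay below every Eed+/+ library and replicate 5 lay inside their range. The log2 difference was -1.22 ± 1.26 (SE), with an edgeR adjusted p of 1.00, and the exact permutation test gave an unadjusted p of 0.0635. Among libraries within the limits the fitted difference had the other sign, 0.25 ± 0.44 (SE), with 126 and 353 CPM in the remaining Eed-/- libraries.

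In neurons Thra had 214 and 77.0 CPM in Eed+/+ and 129, 187 and 326 CPM in Eed-/- libraries, which overlapped (log2 difference 0.44 ± 0.69, edgeR adjusted p 0.840). Thra overlaps Nr1d1 by 1075 bases on the opposite strand, and counting was without strand, so reads in the overlap cannot be assigned to either gene; Nr1d1 had at most 168 reads in any library. Thrb was read in 11 of 15 libraries at up to 152 CPM, the highest being Eed-/- astrocyte replicate 3 with 57 reads, and between genotypes it passed the filter only in neurons (log2 difference 0.65 ± 1.34, edgeR adjusted p 0.879).

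Ncor1 (chr11:62316426-62458541, reverse strand), the corepressor, was the only member read in all 15 labelled libraries. Its levels were 94.3, 239, 297, 235 and 196 CPM in Eed+/+ astrocytes and 167, 147, 266, 565 and 177 CPM in Eed-/- astrocytes. Replicates 1 and 4 of the Eed-/- astrocytes, which held no read of most members, held 103 and 160 Ncor1 reads. The log2 difference was 0.48 ± 1.21 (SE, edgeR adjusted p 1.00) in astrocytes and -0.61 ± 0.63 (edgeR adjusted p 0.786) in neurons, where Eed+/+ libraries had 267 and 388 CPM and Eed-/- libraries 199, 231 and 305 CPM. Within the limits the astrocyte difference had the other sign, -0.15 ± 0.42.

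The hormone target Klf9 (chr19:23141226-23168134), a zinc finger transcription factor, had 118, 200, 0, 106 and 147 CPM in Eed+/+ astrocytes and 0, 115, 90.4, 0 and 86.2 CPM in Eed-/- astrocytes. Libraries with 0 reads occurred in both genotypes and all were outside the limits. The log2 difference was -0.80 ± 1.40 (SE, edgeR adjusted p 1.00). In neurons the levels were 72.5 and 77.0 CPM in Eed+/+ and 54.9, 107 and 101 CPM in Eed-/- libraries, a log2 difference of 0.06 ± 0.64 (edgeR adjusted p 0.982).

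Hr (chr14:70552212-70573548, forward strand) was the member whose libraries separated by cell type. It had 22.6 and 8.88 CPM in Eed+/+ neurons and 6.28, 2.87 and 14.8 CPM in Eed-/- neurons, from 42, 3, 8, 5 and 25 reads. The 10 astrocyte libraries held 5 Hr reads in all, at most 2 in any library and at most 0.958 CPM. Every neuron library lay above every astrocyte library of the same genotype. How many of all genes separated in this way was not counted, so the separation is a description. In Eed-/- astrocyte replicates 1, 3 and 4, however, a count of 0 allows up to 7.83, 7.44 and 14.2 CPM over plain library totals. The lowest Eed-/- neuron level, at 2.87 CPM, lay below these limits. The separation and its exact test thus rested in part on zeros that could not show such a level.

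Summed over libraries, Hr was 51.6-fold higher in Eed+/+ neurons than in Eed+/+ astrocytes (45 against 4 reads, 95% exact interval 18.8 to 198, counting error only). In Eed-/- cells the ratio was 29.9 (38 against 1 read, interval 5.05 to 1212). Single libraries moved both ratios. Without Eed+/+ neuron replicate 1, which held 42 of the 45 reads, the Eed+/+ ratio was 21.3 (3 against 4 reads, interval 3.13 to 126). Without Eed-/- neuron replicate 3 the Eed-/- ratio was 15.2 and without Eed-/- astrocyte replicate 2 it was 15.3, and without Eed-/- astrocyte replicate 5, which held the only astrocyte read, it was at least 7.42-fold. The log2 difference of astrocytes from neurons was -4.96 ± 1.98 in Eed+/+ cells (SE, edgeR unadjusted p 0.0121, adjusted p 1) and -4.54 ± 2.04 in Eed-/- cells (unadjusted p 0.0257, adjusted p 0.538), so Hr did not pass in either. With at most 2 reads in any astrocyte library, Hr passed the filter on low counts only through the neuron libraries, which fixed the direction of these fits. The exact permutation p was 0.0952 and 0.0357, in each case the smallest that the numbers of libraries allow, among 33 such tests on the members. Among libraries within the limits the cell types were also separate, with ratios of 54.7, which rested on a single Eed+/+ neuron library, and 22.2. Between genotypes Hr could be tested only in neurons (log2 difference -1.13 ± 0.98, edgeR adjusted p 0.773).

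Set over all genes, the genotype comparisons called nothing. With edgeR at an adjusted p under 0.05, 0 of 8956 genes (0%) differed between Eed-/- and Eed+/+ astrocytes and 0 of 11862 (0%) between the neurons, with 108 and 862 genes at an unadjusted p under 0.05. DESeq2 called 1 and 27 genes and limma-voom 0 in each. Of the 8 members other than Crym, 5 could be tested in astrocytes and 7 in neurons, and 0 were called in each by edgeR, DESeq2 or limma-voom; at an unadjusted p under 0.05 there were 0 in astrocytes and 1, Dio2, in neurons. Their median log2 difference was -0.80 in astrocytes, beside -0.54 over all genes, and -0.61 in neurons, beside 0.15. Between astrocytes and neurons, 1 of 13367 genes (0.00748%) was called in Eed+/+ cells and 8 (0.0598%) in Eed-/- cells; of the 8 members tested, 0 were called in each, and those at an unadjusted p under 0.05 were Crym and Hr in Eed+/+ cells and Hr in Eed-/- cells. The difference between the genotype effects of the cell types (an interaction term) was called for 7 of 13367 genes (0.0524%) and for 0 of the 7 members tested, Crym left out; their adjusted p was 1.00 in each case. The p-values measure the spread between libraries.

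The other members showed no such separation of the cell types. In Eed+/+ cells the log2 differences of astrocytes from neurons were -1.49 ± 1.45 for Dio2, 0.47 ± 1.43 for Slco1c1 and 0.85 ± 1.5 for Thra (SE, edgeR adjusted p 1 for each). Thrb had 1.93 ± 2.11, Klf9 0.55 ± 1.64 and Ncor1 -0.71 ± 1.34, again with an edgeR adjusted p of 1. In Eed-/- cells, where the median of all genes was -0.72, Dio2 had -0.00 ± 1.34, Slco1c1 0.40 ± 1.23 and Ncor1 0.12 ± 1.21, with SEs of more than 1 on the log2 scale, so that a difference of either sign remained possible. Thrb had 2.19 ± 1.80 in Eed-/- cells, Thra -0.91 ± 1.23 and Klf9 -0.47 ± 1.37, with edgeR adjusted p of at least 0.992. In the interaction, the members other than Crym that lay farthest from 0 were Thra at -1.76 ± 1.96 and Dio2 at 1.48 ± 2.02 (log2, SE).

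**Figure D3:**
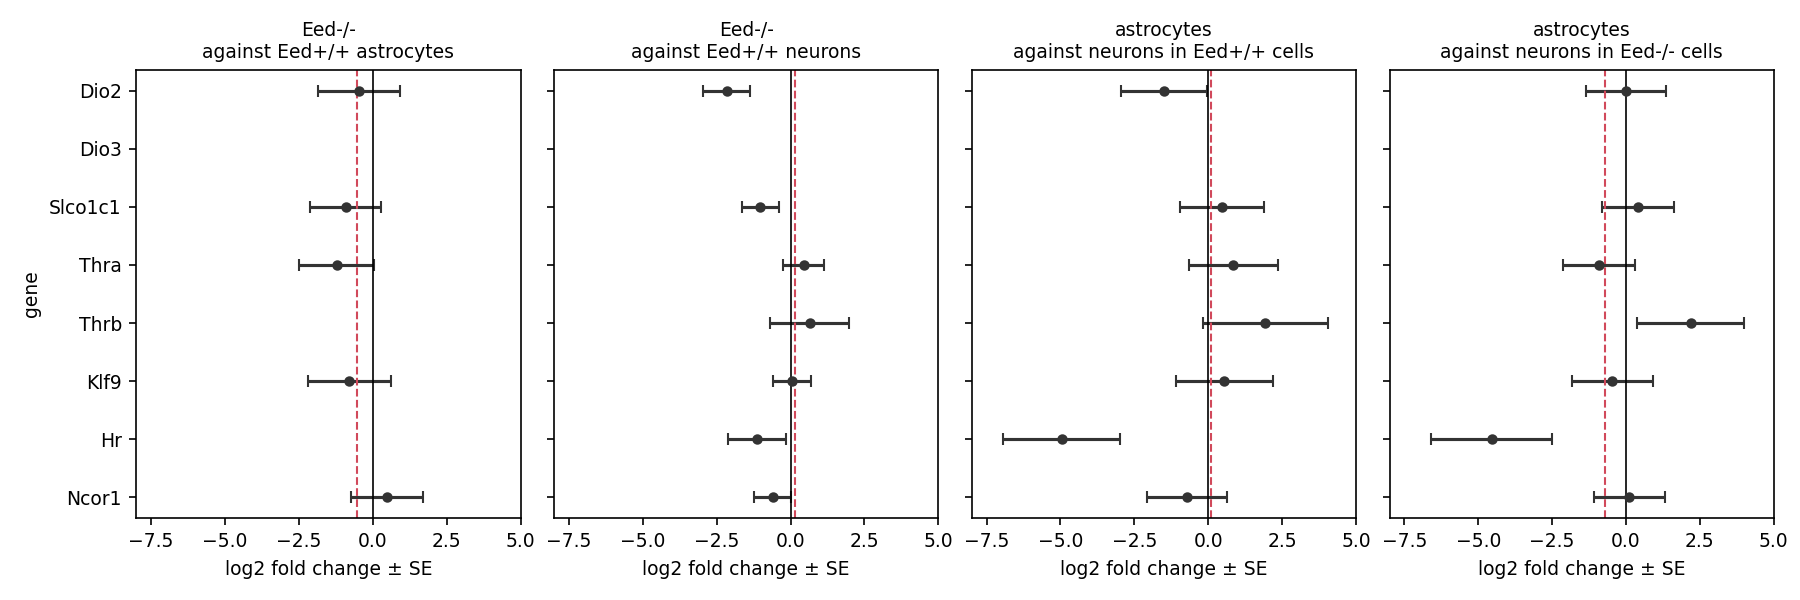
Log2 difference with its SE (x axes) for the members other than Crym (y axis) in the 2 genotype and 2 cell type comparisons. The dashed line is the median over all genes tested and a gene with no point failed the filter on low counts; Hr lies farthest from 0 in both cell type panels, and Dio2 in the neuron genotype panel, and none passed at an adjusted p under 0.05.

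The rest of the pathway was followed in 28 further genes, and with all libraries 0 were called in any comparison. In astrocytes 15 could be tested, of which 0 had an unadjusted p under 0.05, and their median log2 difference was -0.89. In neurons 21 could be tested, with a median of 0.17 beside 0.15 over all genes, and 4 had an unadjusted p under 0.05, namely Slc7a5, Ncoa2, Rasd2 and Reln, beside 862 of 11862 over all genes. Without Eed+/+ neuron replicate 1, in the fit that left the shallow replicate 2 alone and called 20.6% of all genes, 2 transport genes (Slc7a5, log2 difference -2.55, and Slc3a2, 2.04), 1 coactivator (Ncoa2, -3.17) and 1 hormone-responsive gene (Thrsp) were called, with edgeR adjusted p of 0.00608, 0.0486, 0.00784 and 0.00309; replicate 2 held 0 Thrsp reads. The same fit called 4 of the 10 neuron markers and 2 of the 10 astrocyte markers. Among the 6 transport genes the most abundant per kb was Slc3a2, the heavy chain shared by amino acid transporters that also carry thyroid hormone, with log2 differences of 0.07 ± 1.08 in astrocytes (edgeR adjusted p 1.00) and 1.04 ± 0.69 in neurons (edgeR adjusted p 0.751). Its light chain partner Slc7a5 had a log2 difference of -1.85 ± 0.72 in neurons (edgeR unadjusted p 0.0236, adjusted p 0.668). As for Dio2 the difference turned on Eed+/+ neuron replicate 2, with 696 CPM against 158 CPM in replicate 1 and 115 to 159 CPM in the Eed-/- libraries, and without replicate 2 it was -0.23 ± 0.60.

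Of the 4 genes of metabolism and binding, Serpina7 had no read and Dio1 and Iyd had at most 5.87 CPM in any labelled library. The most abundant was Ttr, the carrier of thyroxine made by the choroid plexus, with 96 reads over the Eed-/- astrocytes, 39 over the Eed-/- neurons, 1 over the Eed+/+ astrocytes and 0 over the Eed+/+ neurons. The astrocyte reads lay in Eed-/- replicates 2 and 3, with 52 and 44 reads and up to 117 CPM, and Ttr did not pass the filter on low counts between genotypes. Of the receptor partners, Rxrg was the most abundant per kb, with log2 differences of -1.11 ± 1.55 in astrocytes and 0.89 ± 0.95 in neurons (edgeR adjusted p 1.00 and 0.787). All 5 corepressor genes were tested in both cell types and 0 had an unadjusted p under 0.05; the most abundant, Gps2, a subunit of the complex that NCOR1 forms with a histone deacetylase, had log2 differences of -0.89 ± 1.42 and 0.17 ± 0.64 (edgeR adjusted p 1.00 and 0.934).

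Coactivators gave a median of -1.27 over 3 genes tested in astrocytes and -0.37 over 4 in neurons. Ncoa1, the most abundant per kb, had log2 differences of -1.77 ± 1.49 and 0.11 ± 0.64 (edgeR adjusted p 1.00 and 0.961). Ncoa2 had -2.51 ± 0.82 in neurons (edgeR unadjusted p 0.00876, adjusted p 0.644), and -1.21 ± 0.77 without Eed+/+ neuron replicate 2.

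Of the 6 genes known to respond to the hormone in brain or liver, 5 could be tested in neurons, with a median log2 difference of 1.99, and 2 in astrocytes, with a median of -1.70. None passed the test with all libraries. Reln and Rasd2 passed the filter on low counts in neurons through the Eed-/- libraries, where they were read, so their direction was fixed by the filter and the median is a description. In the same neuron fit the 10 neuron markers had a median of 1.48, with 7 above the median of all genes, and Neurod6 (log2 difference 3.51), Rbfox3 (3.08) and Syt1 (0 reads in the Eed+/+ and 107 in the Eed-/- libraries), each at an unadjusted p under 0.05, did not pass either; their part in the hormone-responsive genes was not tested. Syt1, with no Eed+/+ read, passed the filter only through the Eed-/- libraries, which fixed its direction. Eed+/+ neuron replicate 2 held 0 reads of Thrsp and Camk4. Without it 6 of the hormone-responsive genes could be tested, with a median of 1.02, and without Eed+/+ neuron replicate 1 the median over 6 was 7.03, beside 0.66 over all genes, so that the value turned on 1 library. Camk4 then had -0.28 ± 0.90, against 0.47 ± 1.11 with it (log2, SE). Thrsp, the most abundant per kb, had log2 differences of 1.99 ± 0.96 in neurons (edgeR adjusted p 0.686), 1.16 ± 0.67 without that library, and -2.21 ± 1.51 in astrocytes (edgeR adjusted p 1.00). Reln, which encodes the secreted protein reelin and is also made by Cajal-Retzius cells and interneurons, had 0 reads in both Eed+/+ neuron libraries and 7, 19 and 253 in the Eed-/- ones, so that replicate 3 held most of them. The edgeR unadjusted p of Reln was 0.00357 and its adjusted p 0.644. Rasd2, which encodes a striatal G protein, had 1 and 0 reads against 5, 15 and 15, with an edgeR unadjusted p of 0.0348 and an adjusted p of 0.670. Whether the genotype effects of these genes differed between cell types was tested in the interaction term, and 0 of the 6 passed (edgeR adjusted p 1.00 for each).

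Around Crym, 17 protein-coding genes lie within 500000 bases, and 14 had a read in some labelled library. Only 4 could be tested in astrocytes and 8 in neurons, and 0 were called. Tmem159 (chr7:120102353-120120992), which encodes a lipid droplet protein, was the neighbour with an unadjusted p under 0.05. Its reads in astrocytes were 0, 2, 0, 0 and 0 in the Eed+/+ libraries and 0, 99, 0, 0 and 0 in the Eed-/- libraries, so a single library held them and the other library high in Crym, replicate 5, held none. In neurons Tmem159 had 4 and 0 reads in Eed+/+ and 20, 37 and 14 in Eed-/- libraries, a log2 difference of 3.05 ± 1.22 (SE, edgeR unadjusted p 0.0266, adjusted p 0.668). It passed the filter on low counts only through the Eed-/- libraries, which fixed its direction.

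The genes next to Crym gave few reads. Anks4b, the nearest upstream in coordinate, had 2 reads in the Eed-/- neurons and 0 elsewhere, and Abca14, the nearest downstream in coordinate, had 9 in the Eed-/- astrocytes and 0 elsewhere. Acsm4, Zp2 and Abca15 had 0 reads in every group. Uqcrc2, a subunit of mitochondrial complex III, lay farthest from 0 among the neighbours in the plot of differences by distance. It lay at -3.77 in astrocytes and 4.01 in neurons, where Crym lay at 2.64 and 5.18. Its log2 differences in the fits were -1.34 ± 1.29 in astrocytes (SE, edgeR adjusted p 1.00) and 1.49 ± 1.04 in neurons (edgeR adjusted p 0.761).

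**Figure D4:**
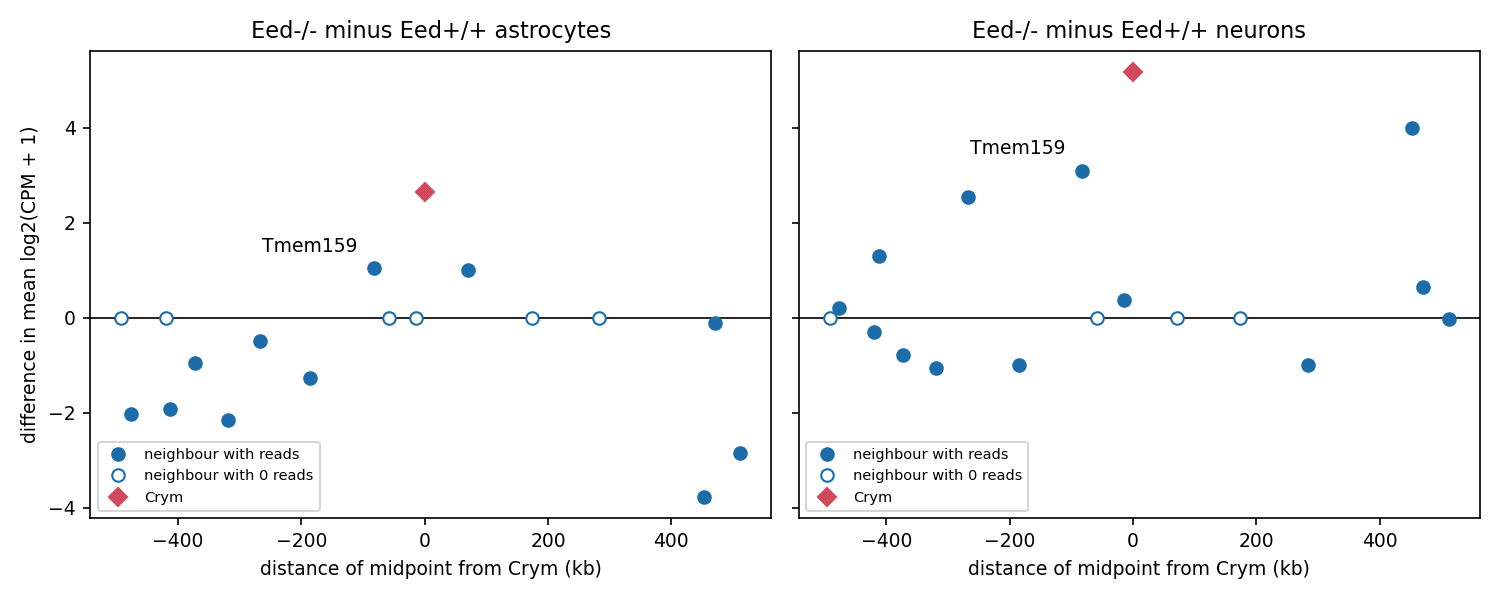
Difference in mean log2(CPM + 1), Eed-/- minus Eed+/+ (y axis), for Crym and the 17 protein-coding genes around it against the distance of each gene's midpoint from that of Crym in kb (x axis), in astrocytes and neurons. Open circles are genes with 0 reads in that cell type; Crym lies at 2.64 in astrocytes and 5.18 in neurons, and Tmem159 at 1.04 and 3.09.

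The genes whose levels were most like those of Crym over the 15 labelled libraries were Patj (Pearson r = 0.88, log2 TMM-scaled CPM), the pseudogene Gm10704 (0.85), Hoxb6 (0.81), Npffr1 (0.81) and Hoxb8 (0.81), out of 13367 genes compared. These values are descriptions, since libraries of 1 group share genotype and depth. Crym was chosen for its rise in Eed-/- cells and these genes for their likeness to Crym. A split of their reads by genotype was therefore built into the choice. Patj had 0, 84, 0, 47 and 39 reads in the Eed-/- astrocyte libraries. Like Crym, it was read in replicates 2, 4 and 5 of that group and in no other of its replicates. It also had 61 reads over the Eed+/+ astrocytes, 9 over the Eed+/+ neurons and 58 over the Eed-/- neurons. Gm10704 had 12 reads over the Eed+/+ astrocytes and 0 over the Eed+/+ neurons, against 23 and 34 in the Eed-/- cells. Hoxb6 had 56 reads over the Eed-/- astrocytes and 47 over the Eed-/- neurons, and 0 in every Eed+/+ library. Npffr1 and Hoxb8 each had 1 read over the Eed+/+ astrocytes and 0 over the Eed+/+ neurons. Gm10704 is a processed pseudogene, and reads of its parent gene could be counted there.

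The labelled cell types were set against their markers, because the members include genes typical of astrocytes. Astrocyte markers summed to 13834 ± 7460 CPM in Eed+/+ astrocytes (SD, n = 5), 9937 ± 8788 in Eed-/- astrocytes (n = 5), 7363 ± 1545 in Eed+/+ neurons (n = 2) and 7133 ± 1131 in Eed-/- neurons (n = 3). Neuron markers summed to 2153 ± 1143, 1291 ± 1067, 1831 ± 471 and 2544 ± 588 CPM in the same order. Over all libraries neither list separated the cell types, with exact permutation p between 0.143 and 0.80, and adjusted p between 0.807 and 0.873 over 24 such tests. Among libraries within the alignment limits the astrocyte list did, with sums of 9529 to 24327 CPM in the 6 astrocyte libraries and 5870 to 8053 CPM in the 4 neuron libraries. The within-limits exact permutation p in Eed-/- cells was 0.20, the smallest that 2 against 3 libraries allow, and with 1 neuron library none was computed in Eed+/+ cells. The neuron list overlapped there too, at 851 to 3018 against 1865 to 2895 CPM. Aqp4, a water channel, and Gfap had log2 differences of astrocytes from neurons of 1.33 ± 1.25 and 1.98 ± 1.49 in Eed+/+ cells (SE, edgeR adjusted p 1 for each). In the same cells S100b and Slc1a2 of that list had -1.84 ± 1.52 and -0.34 ± 1.07, and the rest of the list was positive. In Eed-/- cells Aqp4 had 0.51 ± 1.03 and Gfap 0.24 ± 1.17, while Sox9, alone negative, had -0.99 ± 1.04. Slc1a3, a glutamate transporter of astrocytes, had at least 2102 CPM in each neuron library. Tubb3, a neuronal tubulin, had at least 72.4 CPM in each Eed+/+ astrocyte library. Oligodendrocyte lineage markers were read in all groups, at 129.5 to 5232 CPM. In such sorted bulk samples, fewer cells of a type and less RNA per cell cannot be told apart.

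The rarer cell types fell on single libraries. Microglial markers reached 6207 and 1931 CPM in Eed-/- astrocyte replicates 1 and 3 and at most 314 CPM in any other, and erythroid markers reached 5476 and 8914 CPM in Eed-/- astrocyte replicates 1 and 4 and at most 55.9 CPM in any other. These 3 libraries were outside the alignment limits and held 1, 6 and 3 of the 9 members, in the order of replicates 1, 3 and 4, whereas replicates 2 and 5 held 8 each. The exact permutation p between astrocyte genotypes was 0.444 for the microglial and 0.167 for the erythroid sum. Single globin genes did pass between Eed-/- cell types, higher in astrocytes. These were Hbb-bs, Hbb-bt and Hba-a1 (edgeR adjusted p 7.18e-05, 0.0101 and 0.0027), while Hba-a2 did not pass (0.36). Hbb-bs and Hba-a1 also passed in the interaction (edgeR adjusted p 3.48e-06 and 4.58e-05).

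**Figure D5:**
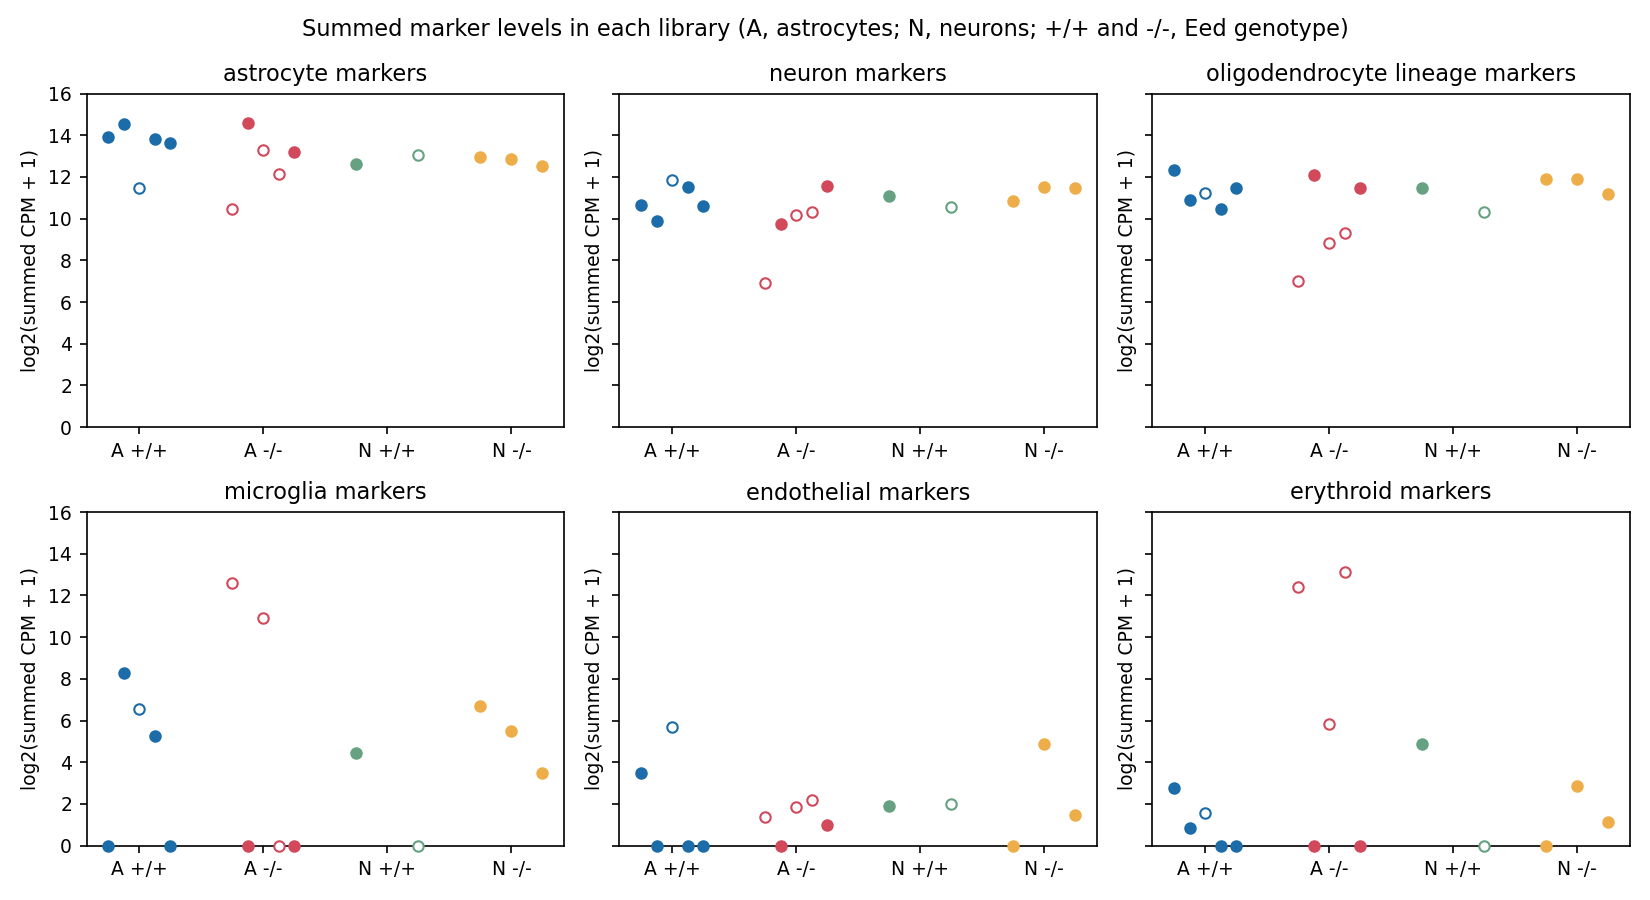
Summed TMM-scaled CPM of 6 marker lists, as log2(sum + 1) (y axis), in each library of the 4 groups (x axis); open points are libraries outside the alignment limits. Astrocyte, neuron and oligodendrocyte lineage markers are read in all groups, and microglial and erythroid markers are high in Eed-/- astrocyte libraries shown as open points.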

How the data were processed

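Smart-seq libraries of polyA RNA from sorted cells were aligned by the authors with STAR to GRCm38/mm10 (submitters' processing notes), and the authors deposited counts of uniquely aligned reads per gene; the unstranded column was used. The sources used here do not name the annotation release. Of 53379 identifiers, 53274 matched GENCODE vM21, and 105 did not. The 4 summary lines of each table were left out. Counts were fitted with edgeR 4.0.16 (R 4.3.3; TMM, filterByExpr, robust quasi-likelihood, two-sided, Benjamini-Hochberg over all genes tested), with 2 groups per genotype comparison and all 15 labelled libraries for cell types and the interaction; DESeq2 1.42.0 and limma 3.58.1 were alternatives. The fits were run on simulated counts with large set changes and a fixed spread, which says nothing of their power in these data. Levels used log2(CPM + 1) in exact permutation tests (scipy 1.17.1), and 95% intervals cover counting error only. The study left out 5 libraries without naming them; here all 15 labelled ones were kept, and limits of 1000000 uniquely aligned reads and 60% were an alternative, as were other size factors, filters, a run covariate, each library left out and, chosen after seeing the data, fits within each run of library numbers. Libraries were from individual animals per the study's methods and legends. Read ratios and neuron list medians without single libraries were added after seeing the data.

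Genes were named by rule: the 9 members, counts over 28 further pathway genes with the most abundant of each role per kb, the overlapping neighbours Nr1d1 and Dio3os, protein-coding genes within 500000 bases of Crym, Eed, and the 5 genes most correlated with Crym; Slc7a5, Ncoa2, Rasd2, Reln, Camk4, Uqcrc2 and single marker genes were named after their values were seen. Members and lists were chosen with earlier results of these data known.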

Additional observations from a re-analysis of the deposited data

Results flagged for a closer look

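Among the 18 sets of 5 astrocyte libraries formed by the 9 members and 2 genotypes, 6 held a library whose gap to the next exceeded Dixon's critical value, where chance gives about 1 in 20 groups. For Dio3 in both genotypes and Hr in Eed-/- astrocytes, 4 of the 5 libraries were at 0, so that any read in the remaining library set it apart and that rate does not apply. Dio3 stood out in Eed+/+ astrocyte replicate 3 (42.4 CPM) and in Eed-/- astrocyte replicate 2 (2.61 CPM), each the only library of its group with a read. Thra was high in Eed+/+ astrocyte replicate 3 (509 CPM), Thrb in Eed-/- astrocyte replicate 3 (152 CPM) and Ncor1 in Eed-/- astrocyte replicate 4 (565 CPM), all libraries outside the alignment limits. Hr stood out in Eed-/- astrocyte replicate 5 (0.958 CPM) on 1 read.

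The library that entered no group held 148 Klf9 reads, or 668 CPM over its 221456 gene reads, above the highest Eed+/+ library (159 CPM over plain library totals).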

How the results depend on the processing

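No alternative brought a tested member past the threshold apart from the neuron fits that left out a library, where 0 to 1 members were called (Dio2, without Eed+/+ neuron replicate 1). The mean Crym level of Eed-/- astrocytes was 180 CPM over all libraries, 407 within the alignment limits and 110 to 225 when a library was left out. Crym failed the low-count filter in 5 of the 10 astrocyte fits that left out a library. Depth limits any level below 14.2 CPM in the shallowest library. Groups shared replicate numbers, and same-numbered libraries did not deviate together (correlations -0.26 to 0.17). With so few libraries this cannot show whether astrocytes and neurons of a number came from the same animal. The main fits treated all libraries as separate. With the replicate block, 0, 0, 0, 5 and 2 genes were called in the astrocyte genotype, neuron genotype, Eed+/+ cell type, Eed-/- cell type and interaction comparisons, and 0 members in each. The causes of the changes below were not tested.

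Log2 differences that changed sign within the alignment limits were, between astrocyte genotypes, Dio2 0.039, Thra 0.25 and Ncor1 -0.15; between neuron genotypes, Thra -0.027; between cell types in Eed+/+ cells, Dio2 0.65 and Thra -0.074; in Eed-/- cells, Dio2 0.89, Thra 0.21, Klf9 0.27 and Ncor1 -0.53; and in the interaction, Slco1c1 0.40, Thra 0.29 and Thrb -0.89. With limma-voom they were Thra -0.16 and Klf9 -0.21 between neuron genotypes and Slco1c1 -0.54 between Eed-/- cell types. With the replicate block they were Klf9 -0.20 between neuron genotypes, Crym -3.28 and Ncor1 -0.25 between Eed-/- cell types, and Dio2 -0.68 and Hr -1.45 in the interaction. Between Eed-/- cell types Dio2, at -0.00, became 0.10 with RLE size factors, 0.046 with a mean count above 10, 0.091 with DESeq2 and 0.51 with the run covariate, which also gave Ncor1 -0.20. In the interaction Slco1c1 became 0.36 with RLE and with DESeq2 and 0.0084 with a mean count above 10, and Thrb -0.49 with the run covariate and -1.14 from log2(CPM + 1) means.

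Leaving out a library changed the sign of Thra (-0.072 to 1.26), Thrb (-0.13 to 6.38) and Klf9 (-0.094 to 0.30) between neuron genotypes, where Dio2 ranged from -2.93 to -0.19. It did so for Dio2 between Eed+/+ cell types (-2.24 to 0.37), for Dio2 (-0.67 to 0.44), Slco1c1 (-0.35 to 0.86), Thrb (-0.44 to 3.01) and Ncor1 (-0.26 to 0.39) between Eed-/- cell types, and for Dio2 (-0.39 to 2.22), Slco1c1 (-0.89 to 0.39), Thrb (-5.22 to 1.29) and Hr (-1.49 to 1.30) in the interaction.

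Within the limits the differences in summed marker CPM changed sign for the astrocyte list between genotypes (342 in astrocytes, 862 in neurons), for the neuron list between astrocyte genotypes (172) and Eed+/+ cell types (-402), for the oligodendrocyte lineage list between astrocyte genotypes (713) and cell types (-3.64 in Eed+/+, 258 in Eed-/- cells), for the microglial list (-87.7 between astrocyte genotypes, -52.5 between Eed-/- cell types), for the endothelial list between Eed+/+ cell types (-0.169) and for the erythroid list (-1.65 between astrocyte genotypes, -2.50 between Eed-/- cell types).

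Genes called between astrocyte genotypes numbered 5 with no filter, 24 with a mean count above 10, 1 with DESeq2, 4 in run 1 alone, 46 in a fit over all 15 libraries and 0 to 1 without a library. Between neuron genotypes they numbered 127 with no filter, 27 with DESeq2, 1 within the limits, 3 over all 15 libraries and 0 to 2601 without a library. Between Eed+/+ cell types they numbered 6 with RLE, 2 with no filter, 3 with a mean count above 10, 8 with DESeq2, 7 with the run covariate, 0 with limma-voom, within the limits or with 2 groups alone, and 0 to 5 without a library. Between Eed-/- cell types they numbered 3 with no filter, 13 with a mean count above 10 or DESeq2, 5 with limma-voom, 0 within the limits and 0 to 26 without a library. In the interaction they numbered 21 with RLE, 2 with no filter, 0 with limma-voom or within the limits and 1 to 12 without a library.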

Other observations

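In the library titled as astrocytes but labelled with the neuron cell type, 2 of the 9 members had reads, Klf9 with 148 and Thra with 1 (4.52 CPM). Crym, Dio2, Dio3, Slco1c1, Thrb, Hr and Ncor1 had 0 reads, which at this depth allows up to 13.5 CPM.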
